A study of Mus musculus with 7 samples.

Results

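The genes described here carry out glycolysis or respond to low oxygen. They are 38 gene symbols of a raw count table with 26583 gene entries, taken as the rows whose symbol equals a member of the list. The list holds 4 glucose and lactate transporters, 16 glycolytic enzymes, 5 enzymes that switch glucose metabolism (the PFKFB and PDK families), 10 further targets of the hypoxia-inducible factors (HIF), and 3 genes for the HIF alpha subunits and the protein that targets them for degradation (Hif1a, Epas1 and Vhl). All 38 were in the table, and 36 passed the filter on low counts that left 13453 genes for testing. Aldoc and Car9 did not pass it.

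The study sequenced RNA of lymphatic endothelial cells, which form the inner wall of lymphatic vessels, from mouse ears. The 4 tumour libraries came from BPC melanoma of the ear pinna in mice labelled BrafCA/+; pten l/l; Cre+, with replicates 1 and 2 male and replicates 3 and 4 female. The 3 naive libraries came from ear skin without tumour. Naive replicates 1 (both sexes pooled) and 3 (male) were labelled BrafCA/+; pten l/l; Cre-, and naive replicate 2 (female) joined that genotype with Braf+/+; pten l/l Cre+. The pten l/l allele was thus common to both groups, and Cre was present in part of naive replicate 2. The sources used here do not give the promoter that drives Cre, the age of the mice, how cells were sorted or how many mice made a library. The p-values therefore refer to the spread between the 7 libraries, part of which may be technical. In bulk RNA of this kind, fewer cells of a type and less RNA per cell cannot be told apart.

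Glycolysis breaks glucose down to pyruvate and, with lactate dehydrogenase, to lactate, and endothelial cells draw much of their energy from it. At normal oxygen, prolyl hydroxylases mark the HIF alpha subunits, the von Hippel-Lindau protein binds the marked subunits, and they are degraded. At low oxygen the subunits persist and induce genes that hold the core motif ACGTG or GCGTG, among them many glycolytic enzymes, glucose transporters and the prolyl hydroxylases Egln1 and Egln3. HIF activity is set mostly at the protein level, which transcript counts do not measure.

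Library totals were 52940832 to 62947508 counts in the tumour group and 59735153 to 63032175 in the naive group, so that 3 counts corresponded to 0.0478 to 0.0521 CPM (counts per 1000000 of the library size after TMM scaling). Lymphatic endothelial markers (10 genes, Prox1, Lyve1 and Flt4 among them) were all present, with summed levels of 11137 to 14772 CPM in tumour and 12889 to 15796 CPM in naive libraries. Markers of other cells were also present. Fibroblast markers summed to 1835 to 18538 CPM in tumour and 661 to 1242 CPM in naive libraries, with 10 of 10 higher in the tumour mean. Myeloid markers summed to 273 to 545 CPM in tumour and 88.1 to 122 CPM in naive libraries, 12 of 12 higher. Melanocyte markers summed to 10.6 to 121 CPM in tumour and 1.20 to 5.82 CPM in naive libraries, 7 of 9 higher. Tumour replicate 4 held the highest sum of all 3 lists. Its lymphatic endothelial sum was the lowest of all libraries (11137 CPM) and was below its fibroblast sum (18538 CPM). Keratinocyte markers summed to 40.0 to 149 CPM in tumour and 7.57 to 65.7 CPM in naive libraries, 8 of 9 higher. Blood endothelial markers summed to 2242 to 2464 CPM in tumour and 2383 to 2698 CPM in naive libraries. The sums overlapped, yet 8 of 10 blood endothelial markers were higher in the tumour mean, and 3 were at 0 in every naive library. Skeletal muscle and erythroid markers summed to at most 4.45 CPM in any library, with Myh4, Myl1, Pvalb and Hba-a1 among the markers at 0 in all. Glycolytic enzymes are expressed in all of these cell types, and the part of other cells in the values below was not tested.

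In the comparison of tumour with naive lymphatic endothelial cells, no member passed an adjusted p of 0.05 in the edgeR quasi-likelihood fit, adjusted by Benjamini-Hochberg over all 13453 genes. That was 0 of 36, where 1.7% of all tested genes passed, 0.899% higher and 0.803% lower. At an unadjusted p under 0.05 there were 6 of 36, 4 with higher values in tumour (Vhl, Pfkl, Gapdh and Eno1) and 2 with lower values (Ddit4 and Egln1), which is 16.7% of the members beside 16.9% of all tested genes (9.1% higher and 7.83% lower). DESeq2 called 3 members, Eno1 and Vhl higher and Ddit4 lower, where it called 10.8% of all genes. Ddit4 was also the 1 member called by limma-voom, with 2.04% of all genes called, and by edgeR after a filter of 5 CPM in 3 libraries, with 3.51% called. The libraries of the groups did not overlap for 7 members (19.4%, against 18.0% of all tested genes), of which 6 were higher in tumour (9.57% of all genes) and 1 was lower (8.46%). Counts of called and of separated members were thus close to those of the whole table.

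The classes leaned in different directions. Of 15 tested glycolytic enzymes, 13 had a log2 fold change above 0 (86.7%, against 52.5% of all tested genes), with a median of 0.29 where the median of all genes was 0.04. Of 9 tested HIF targets outside glycolysis among the members, 7 had a log2 fold change below 0 (77.8%, against 47.5% of all tested genes), with a median of -0.29. A separate list of 29 tested further HIF target genes, described below, did not lean down, with 15 above 0 (51.7%) and a median of 0.12. The 4 transporters had a median of -0.04, the 5 PFKFB and PDK genes a median of 0.07, and Hif1a, Epas1 and Vhl a median of 0.25. These medians are a description and carry no test.

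**Figure D1:**
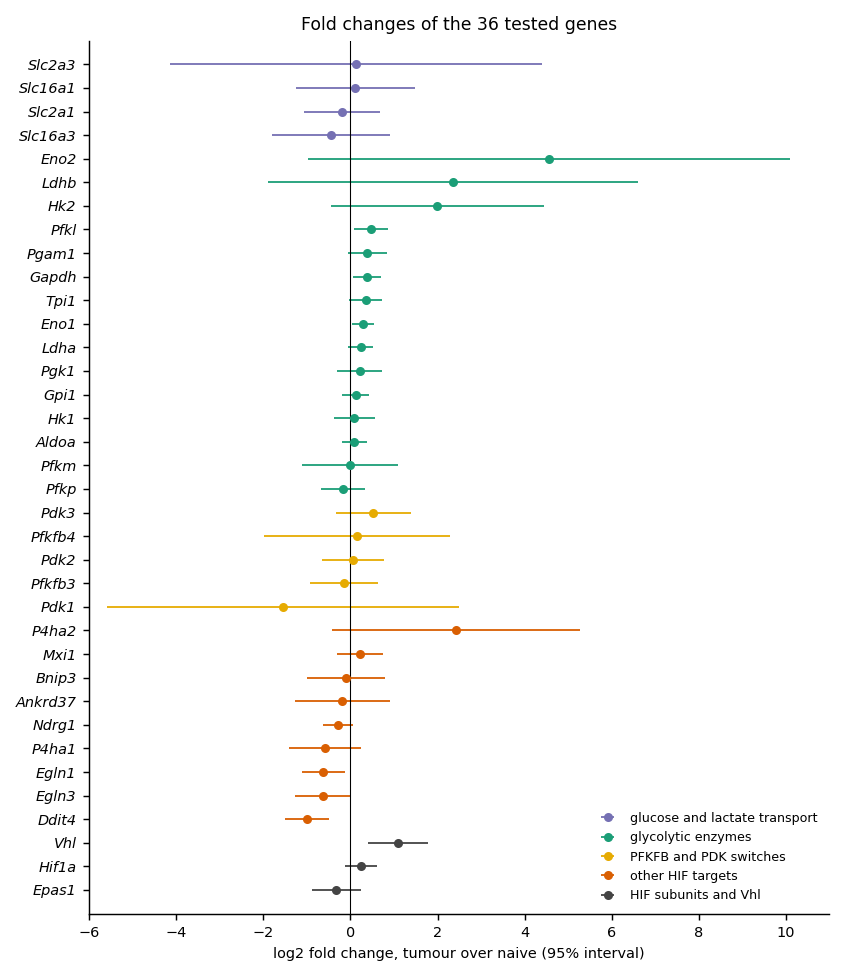
Log2 fold change of tumour over naive for each of the 36 tested genes, from the edgeR fit, with its 95% confidence interval, grouped by class. Among glycolytic enzymes 13 of 15 points lie above 0, among other HIF targets 7 of 9 lie below 0, and the intervals of 6 genes leave out 0.

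The same genes and libraries can also be read library by library. Relative to the naive mean of each gene, the median glycolytic enzyme stood at 0.24, 0.35, 0.45 and 0.27 on the log2 scale in tumour replicates 1 to 4, against -0.05, 0.06 and -0.01 in naive replicates 1 to 3. The median HIF target outside glycolysis stood at -0.27, -0.14, -0.46 and -0.52 in the tumour libraries, against -0.11, 0.05 and 0.11 in the naive libraries. All 4 tumour libraries lay above the 3 naive ones for the enzymes and below them for the other HIF targets, although tumour replicate 2 and naive replicate 1 were close for the HIF targets. Subtracting the naive mean of each gene keeps the naive medians small, and all 4 tumour libraries share that reference. The members were also chosen with earlier results of these data known, so this separation is a description and no further support. The median over all tested genes was 0.02 to 0.06 in tumour and 0.00 to 0.02 in naive libraries, also without overlap but over a far narrower range. The groups overlapped for the medians of the transporters, the PFKFB and PDK genes, and the set of Hif1a, Epas1 and Vhl.

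**Figure D2:**
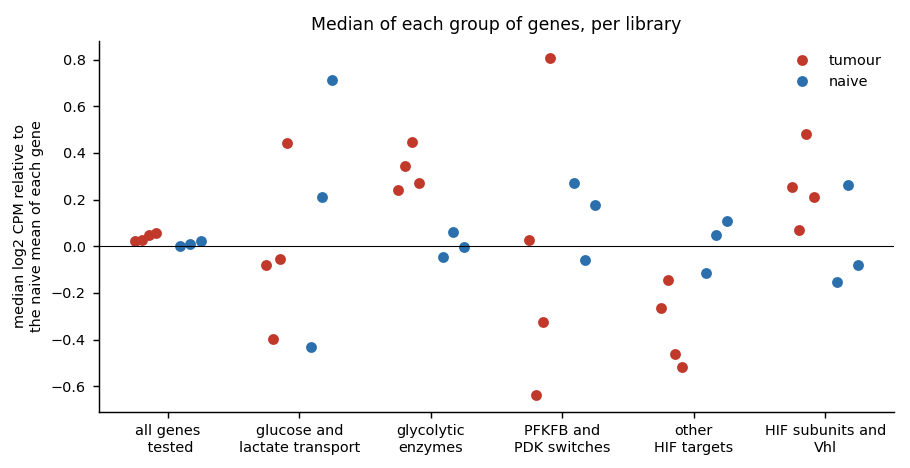
Median log2 level of each class in each library relative to the naive mean of each gene, tumour libraries left of naive libraries, with all tested genes for comparison. The 4 tumour libraries lie at 0.24 to 0.45 for glycolytic enzymes and at -0.52 to -0.14 for the other HIF targets.

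Tumour replicate 4, which had the most fibroblast, myeloid and melanocyte marker counts, stood above tumour replicate 1 alone for the enzymes and lowest for the other HIF targets. Leaving it out gave medians of 0.32 for the enzymes and -0.21 for the HIF targets. A code in each sample's description was read as the sequencing lane, although the labels do not name it so. Lane 8 was the only one to hold both groups, with tumour replicate 3 (female) and naive replicate 3 (male), so sex and group cannot be told apart in this pair. Between these 2 libraries the median enzyme differed by 0.48 and the median HIF target by -0.57 on the log2 scale, with no replicate check. Again 13 of 15 enzymes were above 0 and 7 of 9 HIF targets below 0, but not all were the same genes. Hk1 (-0.25) and Ndrg1 (0.096) left the direction of their class there, and Pfkm (0.04) and Mxi1 (-0.27) joined it. The PFKFB and PDK genes did not keep their median there. It was -0.60 with 1 of 5 genes above 0, against 0.07 and 3 of 5 with all libraries. Without each library in turn this median was -0.18 to 0.31 and that of the transporters -0.31 to 0.08, so neither class had a settled direction. A fit with lane as a term rests on the same pair and called no gene of the table. On the other lanes, lane and group cannot be told apart.

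**Figure D3:**
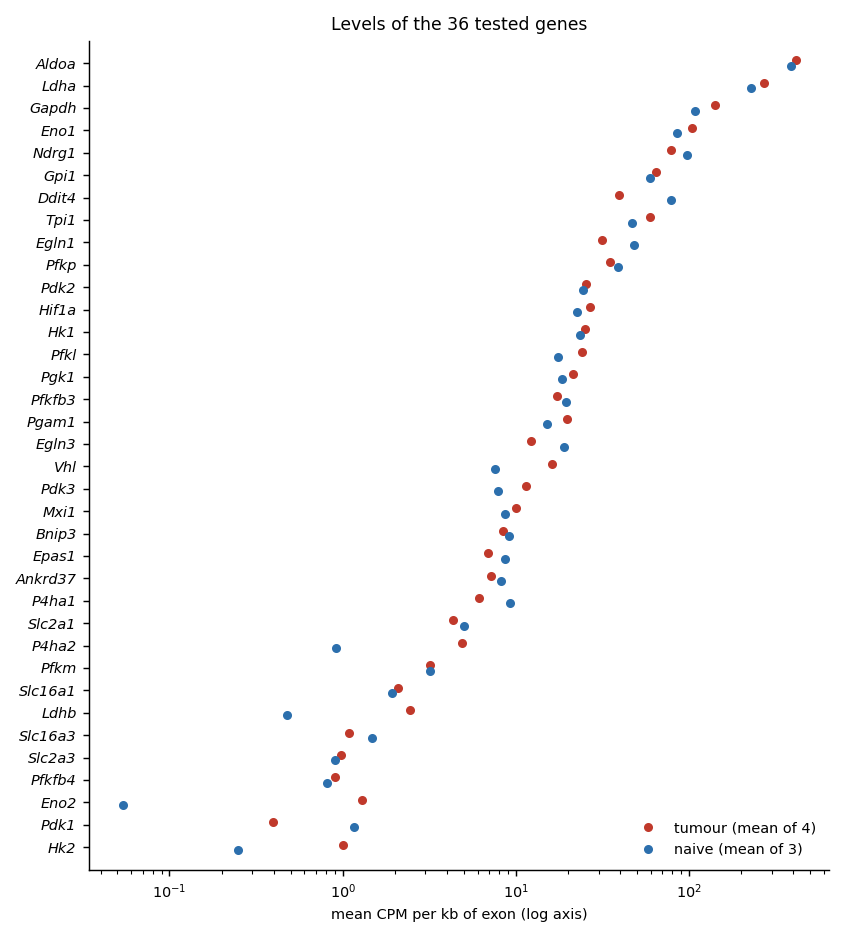
Mean level of each of the 36 tested genes as CPM per kilobase of exon on a log axis, tumour in red (mean of 4 libraries) and naive in blue (mean of 3), ordered by the mean over all libraries. Aldoa, Ldha, Gapdh and Eno1 head that order, and Hk2, Pdk1 and Eno2 close it.

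Levels of different genes can be compared per kilobase of exon. Aldoa, the aldolase that splits the six-carbon sugar, was highest with 412 ± 42.8 CPM per kilobase in tumour and 388 ± 29.4 in naive libraries (SD, n = 4 and 3). Ldha, which turns pyruvate into lactate, followed with 269 ± 32.2 CPM per kilobase in tumour and 229 ± 14.1 in naive libraries, then Gapdh with 140 ± 19.96 in tumour and 108 ± 3.84 in naive libraries. Eno1 had 104 ± 4.62 CPM per kilobase in tumour and 85.2 ± 4.68 in naive libraries. In both groups each of these levels differed from its neighbour in this order by more than the SDs of the pair. Ndrg1, a stress-response gene, was the highest of the HIF targets outside glycolysis, with 78.9 ± 9.0 CPM per kilobase in tumour and 96.5 ± 16.3 in naive libraries. Hexokinase was mainly Hk1, with 25.0 ± 3.31 CPM per kilobase in tumour and 23.5 ± 6.52 in naive libraries, where Hk2 had 0.999 ± 0.495 in tumour and 0.250 ± 0.293 in naive libraries.

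Promoters are shown for the members with an unadjusted p under 0.05 and a single listed start site, since the list sets HIF targets beside one another and the HIF core motif can be read in them directly. The windows run from 250 bases before to 50 after the start site, in the RefSeq table for GRCm38.p6, 5′ to 3′ on the strand of the gene, with ACGTG or GCGTG in capitals on either strand (CACGT and CACGC when read on the other). They are chr10:59951721-59952020 (minus strand) for Ddit4, chr8:124949205-124949504 (minus) for Egln1, chr6:125165724-125166023 (minus) for Gapdh, chr10:78009758-78010057 (minus) for Pfkl and chr6:113623744-113624043 (plus) for Vhl.
Ddit4: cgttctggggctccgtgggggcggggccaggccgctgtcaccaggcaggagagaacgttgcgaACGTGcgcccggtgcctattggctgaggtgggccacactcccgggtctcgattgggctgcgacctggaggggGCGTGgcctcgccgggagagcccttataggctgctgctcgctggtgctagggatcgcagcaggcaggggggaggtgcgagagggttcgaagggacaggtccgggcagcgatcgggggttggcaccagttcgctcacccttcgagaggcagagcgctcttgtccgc
Egln1: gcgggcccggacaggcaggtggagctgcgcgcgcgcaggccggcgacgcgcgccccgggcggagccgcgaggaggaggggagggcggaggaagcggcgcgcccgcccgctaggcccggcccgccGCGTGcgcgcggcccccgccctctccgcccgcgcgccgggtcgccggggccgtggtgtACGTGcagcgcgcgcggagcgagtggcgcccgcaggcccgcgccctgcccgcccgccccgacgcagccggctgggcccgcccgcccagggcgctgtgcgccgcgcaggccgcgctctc
Gapdh: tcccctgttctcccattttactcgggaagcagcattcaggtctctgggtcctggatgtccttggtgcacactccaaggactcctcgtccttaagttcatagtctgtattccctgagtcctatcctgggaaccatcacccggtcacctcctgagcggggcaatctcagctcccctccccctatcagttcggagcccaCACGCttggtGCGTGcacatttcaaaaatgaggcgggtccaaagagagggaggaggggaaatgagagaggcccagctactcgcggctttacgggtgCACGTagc
Pfkl: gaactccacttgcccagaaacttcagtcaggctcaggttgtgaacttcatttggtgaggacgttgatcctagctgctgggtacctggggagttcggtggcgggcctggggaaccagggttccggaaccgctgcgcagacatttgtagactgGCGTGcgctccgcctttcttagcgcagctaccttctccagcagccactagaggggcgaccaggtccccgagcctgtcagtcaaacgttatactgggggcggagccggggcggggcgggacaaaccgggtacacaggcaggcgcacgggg
Vhl: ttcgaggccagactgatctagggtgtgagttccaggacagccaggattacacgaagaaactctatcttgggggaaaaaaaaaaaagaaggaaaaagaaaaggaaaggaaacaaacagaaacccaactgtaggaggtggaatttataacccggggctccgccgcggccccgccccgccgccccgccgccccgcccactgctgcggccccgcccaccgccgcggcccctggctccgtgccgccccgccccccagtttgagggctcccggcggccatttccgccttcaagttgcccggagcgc

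The motif stood 2 times in the windows of Ddit4 and Egln1, whose values were lower in tumour, 3 times in that of Gapdh and 1 time in that of Pfkl, whose values were higher, and no match was in the window of Vhl. It was found in 40 of 50 member windows (80.0%), from 35 genes, and in 43.8% of all 32851 windows in the table. Member windows were richer in G and C, with a median of 63.2% against 52.7% of all windows, which bears on how often the letters occur. The motif stood in 20 of 26 windows of glycolytic enzymes (76.9%) and in 10 of 11 windows of other HIF targets (90.9%). The median G and C content of these windows was 57.3% and 69.0%, and some genes gave several windows. Whether the motif bears on the direction of a class was not tested. The sequence CACGTG, which contains the HIF core and is bound by many other factors, was in 14.0% of member windows and 7.15% of all. A match of letters is not a binding site.

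Among the HIF targets outside glycolysis, Ddit4 had the smallest p of all members. Ddit4 (chromosome 10, 59949669 to 59951834, GRCm38) encodes REDD1, a stress-induced inhibitor of mTORC1. It had 83.0, 85.4, 59.9 and 47.1 CPM in tumour replicates 1 to 4, against 127, 142 and 144 CPM in naive replicates 1 to 3. Every tumour library was below every naive library. The mean was 68.8 ± 18.5 CPM in tumour and 138 ± 9.33 CPM in naive libraries (SD, n = 4 and 3), a log2 fold change of -1.0 (SE 0.22, 95% interval -1.50 to -0.50) with an edgeR adjusted p of 0.0653. The adjusted p was 0.00129 to 0.533 over the alternatives, lowest with DESeq2 and highest with lane as a term, and the fold change was -1.12 to -0.85 with each library left out in turn.

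Egln1 and Egln3 encode the prolyl hydroxylases PHD2 and PHD3, which mark HIF for degradation and are themselves HIF targets. Egln1 had 124, 140, 106 and 78.8 CPM in tumour libraries, against 194, 137 and 189 CPM in naive libraries, and Egln3 had 33.9, 44.6, 22.5 and 28.4 CPM in tumour libraries, against 65.2, 41.4 and 44.2 CPM in naive libraries. For each gene the groups overlapped only through tumour replicate 2, which exceeded 1 naive library for Egln1 and 2 for Egln3. The log2 fold change was -0.63 (SE 0.22, adjusted p = 0.187, edgeR) for Egln1 and -0.64 (SE 0.28, adjusted p = 0.301, edgeR) for Egln3. As a share of the pair, per kilobase, Egln3 made up 28% ± 4.51 in tumour and 28.1% ± 3.75 in naive libraries, so that the balance of the pair was alike to within the SDs.

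The collagen prolyl 4-hydroxylase subunits P4ha1 and P4ha2 had values on opposite sides. P4ha1 had 25.7, 11.5, 27.4 and 36.5 CPM in tumour libraries, against 30.6, 43.2 and 40.7 CPM in naive libraries. P4ha2 had 4.93, 15.8, 9.68 and 15.5 CPM in tumour libraries, against 0.0172, 4.62 and 1.76 CPM in naive libraries. The groups overlapped for P4ha1 and not for P4ha2. The log2 fold change was -0.59 (SE 0.36, adjusted p = 0.479) for P4ha1 and 2.43 (SE 1.25, adjusted p = 0.384) for P4ha2 by edgeR. P4ha2 made up 25.2%, 70.6%, 38.3% and 42.8% of the pair per kilobase in tumour libraries, against 0.0984%, 15.8% and 7.07% in naive libraries. The difference of means was 36.6 percentage points, with a two-sided exact permutation p of 0.0571. That is the smallest value that the two-sided form used here can give with 4 against 3 libraries. Adjusted over the 16 shares compared, p was 0.457. Without 1 library at a time, the log2 fold change of P4ha2 was 1.85 (without naive replicate 1) to 3.69 (without naive replicate 2). The sum of the 10 fibroblast markers was higher in every tumour library (1835 to 18538 CPM) than in every naive one (661 to 1242 CPM). In tumour replicates 1 to 4 it was 2860, 1835, 6220 and 18538 CPM, beside 4.93, 15.8, 9.68 and 15.5 CPM of P4ha2. The part of fibroblast RNA in the P4ha1 and P4ha2 values was not tested.

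Of the remaining HIF targets, Ndrg1 had 239, 226, 254 and 193 CPM in tumour libraries, against 330, 269 and 238 CPM in naive libraries, overlapping groups that differed by -0.29 on the log2 scale (SE 0.15, edgeR adjusted p = 0.399). Bnip3, a mitophagy receptor, Ankrd37, an ankyrin-repeat gene, and Mxi1, an antagonist of Myc, had log2 fold changes of -0.11, -0.19 and 0.22, each smaller than its SE. Car9, the carbonic anhydrase widely used as a hypoxia marker of tumours, had 48 counts in tumour replicate 2 (0.786 CPM) and 0 counts in the 6 other libraries. Some counts of Ndrg1, Bnip3, Ankrd37, Mxi1 and Car9 could come from genes that share exon sequence on the other strand, since the library kit does not mark strand.

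**Figure D4:**
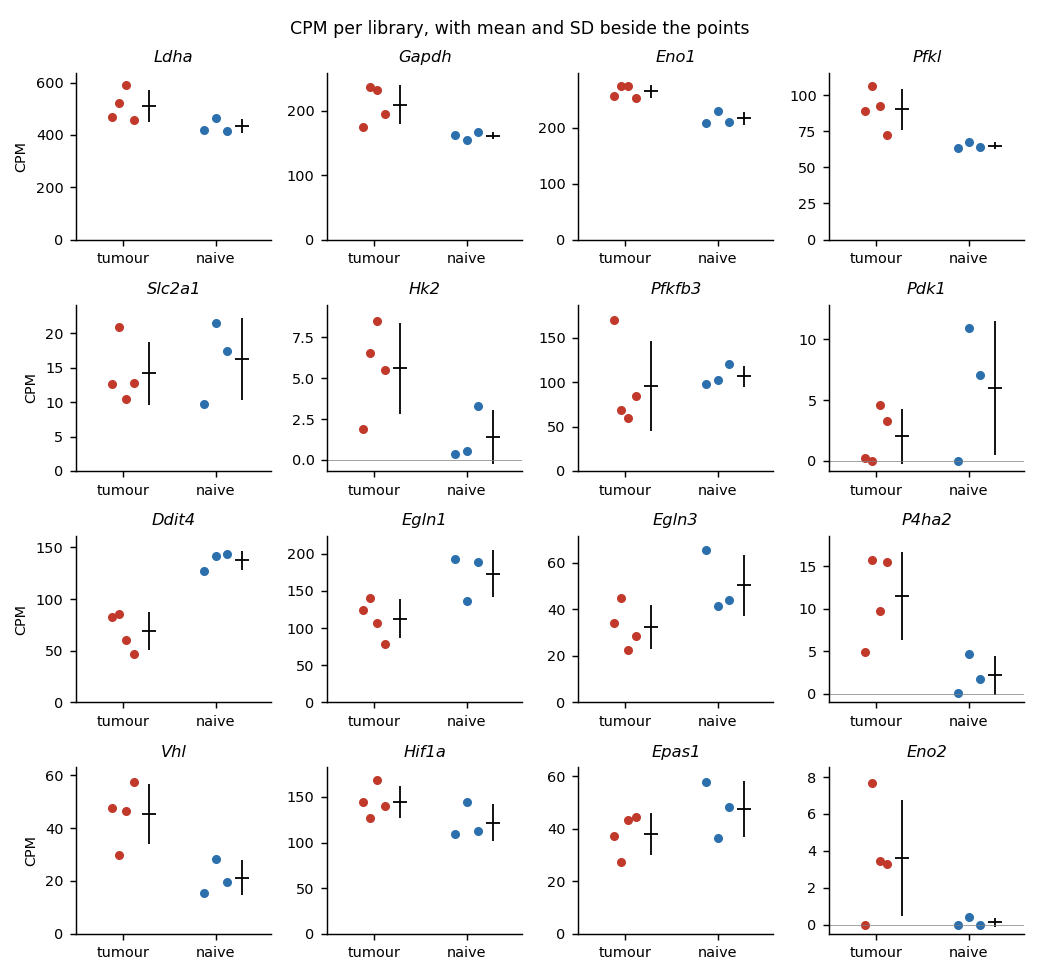
CPM in every library for 16 of the members, tumour (red) left of naive (blue), each panel with its own axis and with the group mean and SD drawn beside the points. Tumour libraries lie wholly below naive ones for Ddit4 and wholly above them for Vhl, Pfkl, Gapdh, Eno1 and P4ha2, and the groups overlap for Ldha, Slc2a1, Hk2, Pfkfb3, Pdk1, Egln1, Egln3, Hif1a, Epas1 and Eno2.

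Vhl encodes the substrate-binding subunit of the ligase that degrades HIF alpha. Vhl (chromosome 6, 113623959 to 113631633) had 47.7, 30.0, 46.4 and 57.3 CPM in tumour libraries, against 15.6, 28.5 and 19.4 CPM in naive libraries. All tumour values exceeded all naive values, by a narrow margin between tumour replicate 2 and naive replicate 2. The mean was 45.3 ± 11.3 CPM in tumour and 21.2 ± 6.61 CPM in naive libraries, with a log2 fold change of 1.10 (SE 0.30, 95% interval 0.41 to 1.79) and an edgeR adjusted p of 0.118. It was 0.0124 with DESeq2 and 0.0124 to 0.621 over the alternatives.

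Hif1a, the oxygen-regulated HIF subunit of most cells, had 144, 127, 169 and 140 CPM in tumour libraries, against 109, 145 and 112 CPM in naive libraries. Epas1, the HIF subunit 2 alpha prominent in endothelium, had 37.0, 27.2, 43.2 and 44.5 CPM in tumour libraries, against 57.8, 36.5 and 48.2 CPM in naive libraries. Both pairs of groups overlapped. The log2 fold change was 0.25 (95% interval -0.12 to 0.62, adjusted p = 0.511, edgeR) for Hif1a and -0.32 (95% interval -0.89 to 0.24, adjusted p = 0.597, edgeR) for Epas1. Per kilobase, Hif1a made up 79.5% ± 2.64 of the pair in tumour and 72.0% ± 7.40 in naive libraries, a difference with an exact permutation p of 0.229. Exons of Hif1a overlap those of Gm15283 on the other strand and Gm49321 on the same strand.

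Glucose enters through Slc2a1 (GLUT1) and Slc2a3 (GLUT3), and lactate crosses the membrane through Slc16a1 (MCT1) and Slc16a3 (MCT4). Slc2a1 had 12.6, 20.9, 10.5 and 12.8 CPM in tumour libraries, against 9.80, 21.5 and 17.4 CPM in naive libraries, with both groups covering much the same range. Its log2 fold change was -0.19 (SE 0.38, 95% interval -1.07 to 0.68, adjusted p = 0.869, edgeR), and 0.06 without naive replicate 2. Slc2a3 had 8.28, 0.0164, 2.92 and 4.29 CPM in tumour libraries, against 0, 8.68 and 2.02 CPM in naive libraries, a spread within each group larger than any difference between them. Slc16a1 averaged 9.18 ± 3.20 CPM in tumour and 8.48 ± 6.88 CPM in naive libraries, and Slc16a3 averaged 4.81 ± 1.33 CPM in tumour and 6.56 ± 2.71 CPM in naive libraries. For both lactate carriers the groups overlapped (adjusted p = 0.954 and 0.795, edgeR).

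At the first committed steps, Hk2, the inducible hexokinase, was low and variable. It had 1.89, 6.52, 8.52 and 5.51 CPM in tumour libraries, against 0.360, 0.555 and 3.30 CPM in naive libraries, and only naive replicate 3 exceeded a tumour library. Its log2 fold change of 2.0 had a 95% interval of -0.45 to 4.44 and an adjusted p of 0.407 by edgeR, and was 3.61 without naive replicate 3. Per kilobase, Hk2 made up 1.58%, 4.59%, 5.50% and 3.29% of Hk1 and Hk2 in tumour libraries, against 0.325%, 0.499% and 1.86% in naive libraries (exact permutation p = 0.114). Hk1 averaged 121 ± 16.1 CPM in tumour and 114 ± 31.6 CPM in naive libraries, with a log2 fold change of 0.09.

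Phosphofructokinase, which commits sugar to glycolysis, is made by 3 genes. Pfkl had 89.1, 106, 92.7 and 72.0 CPM in tumour libraries, against 63.6, 67.8 and 63.7 CPM in naive libraries. All tumour values were above all naive values, and the log2 fold change was 0.47 (SE 0.17, 95% interval 0.08 to 0.85, adjusted p = 0.203, edgeR). Pfkp, the more abundant subunit, averaged 149 ± 34.4 CPM in tumour and 168 ± 40.3 CPM in naive libraries, with overlapping groups and a log2 fold change of -0.17 (adjusted p = 0.799, edgeR). Its exons overlap those of Pitrm1 on the other strand. Pfkm averaged 9.53 ± 3.74 CPM in tumour and 9.62 ± 4.12 CPM in naive libraries. Per kilobase, Pfkl made up 39.2% ± 5.07 of the family in tumour and 29.8% ± 5.76 in naive libraries, and Pfkp 55.7% ± 4.97 in tumour and 64.8% ± 6.96 in naive libraries. Each of these share differences had an exact permutation p of 0.114.

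**Figure D5:**
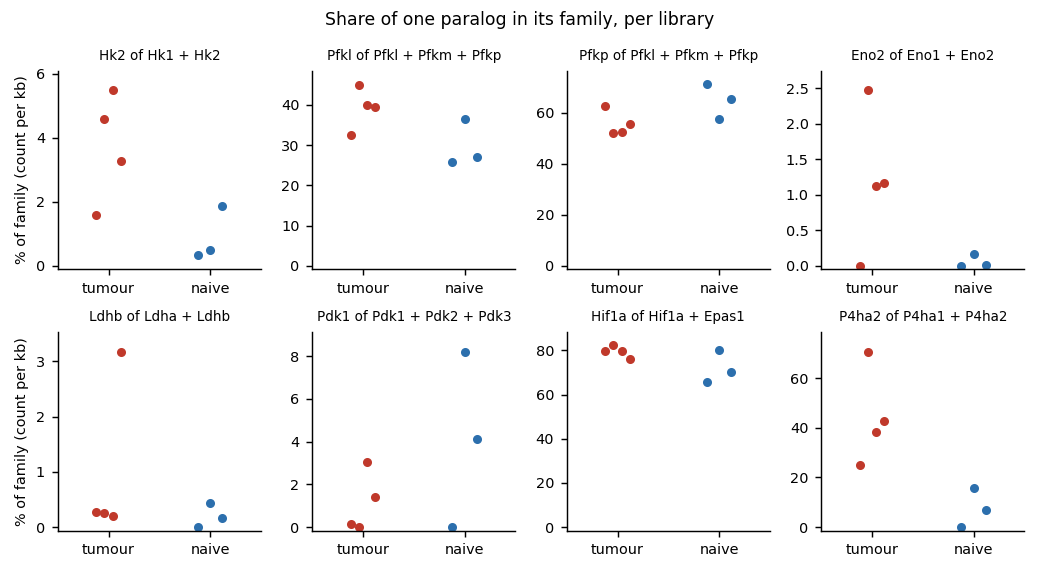
Share of a paralog in its family's summed level per kilobase, in percent, in each library, tumour (red) left of naive (blue), for 8 of the 16 shares compared. P4ha2 is the 1 share of the 16 whose groups do not overlap, at 25.2% to 70.6% in tumour and 0.0984% to 15.8% in naive libraries.

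The enzymes after aldolase included several whose groups did not overlap. Gapdh, the dehydrogenase that yields the first NADH, had 175, 237, 233 and 195 CPM in tumour libraries, against 162, 156 and 167 CPM in naive libraries. Eno1, the enolase, had 257, 276, 276 and 254 CPM in tumour libraries, against 209, 231 and 211 CPM in naive libraries. For both genes all tumour libraries exceeded all naive ones. The log2 fold change was 0.38 (SE 0.14, 95% interval 0.05 to 0.70, adjusted p = 0.226) for Gapdh and 0.29 (SE 0.11, 95% interval 0.04 to 0.54, adjusted p = 0.228) for Eno1 by edgeR. The coefficient of variation of Eno1 was 4.43% in tumour and 5.50% in naive libraries, and DESeq2 gave it a log2 fold change of 0.30 with an adjusted p of 0.0244.

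Pgam1, the phosphoglycerate mutase, had 32.3, 34.4, 36.4 and 36.1 CPM in tumour libraries, against 27.2, 29.1 and 23.7 CPM in naive libraries, again with no overlap (log2 fold change 0.38, SE 0.20, adjusted p = 0.382, edgeR). Tpi1, the triosephosphate isomerase, had 94.6, 112, 111 and 102 CPM in tumour libraries, against 84.7, 94.6 and 66.8 CPM in naive libraries. Tumour replicate 1 and naive replicate 2 were alike for Tpi1, and the other libraries were separated (log2 fold change 0.35, SE 0.16, adjusted p = 0.326, edgeR). Pgk1, the phosphoglycerate kinase, had 35.5, 29.7, 45.8 and 45.3 CPM in tumour libraries, against 30.2, 37.6 and 33.5 CPM in naive libraries, with overlap (log2 fold change 0.21, 95% interval -0.30 to 0.73, adjusted p = 0.733, edgeR).

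Ldha had 469, 521, 591 and 456 CPM in tumour libraries, against 420, 464 and 417 CPM in naive libraries. Tumour replicate 4 was just under naive replicate 2 and the other tumour libraries were above all naive ones, with a log2 fold change of 0.23 (SE 0.13, 95% interval -0.06 to 0.53, adjusted p = 0.428, edgeR). Aldoa, with 708, 848, 780 and 672 CPM in tumour libraries against 766, 661 and 695 CPM in naive libraries, and Gpi1, the phosphoglucose isomerase, which averaged 186 ± 14.8 CPM in tumour and 171 ± 21.3 CPM in naive libraries, overlapped. Their log2 fold changes were 0.09 (95% interval -0.20 to 0.37) and 0.12 (95% interval -0.19 to 0.44), so that a doubling of either lies outside its interval. Gapdh, Eno1, Ldha, Aldoa, Tpi1, Pgk1 and Pgam1 have near-identical processed copies in the genome, and how reads shared with such copies were counted is not given, so their counts are uncertain to that extent.

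The minor isoforms were sparse. Eno2, the neuronal enolase, had 0, 7.65, 3.44 and 3.29 CPM in tumour libraries, against 0, 0.434 and 0.0173 CPM in naive libraries, and 2 libraries, 1 of each group, were at 0. Its log2 fold change of 4.56 had a 95% interval of -0.97 to 10.09 and was 8.39 without naive replicate 2. Ldhb, which favours the turn of lactate into pyruvate, had 0.860, 0.885, 0.797 and 10.3 CPM in tumour libraries, against 0, 1.39 and 0.484 CPM in naive libraries. Its log2 fold change was 2.36 with all libraries and 0.44 without tumour replicate 4. Aldoc, the brain aldolase, had 81 counts in tumour replicate 4 and 0 counts in the 6 other libraries.

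Among the switches, Pfkfb3, whose product drives phosphofructokinase, had 171, 68.4, 59.8 and 84.5 CPM in tumour libraries, against 98.2, 102 and 120 CPM in naive libraries. Tumour replicate 1 was above every naive library and the other 3 tumour libraries were below every one. The log2 fold change was -0.16 (SE 0.34, 95% interval -0.94 to 0.63, adjusted p = 0.881, edgeR) with all libraries, -0.59 (adjusted p = 0.159) without tumour replicate 1 and 0.02 without tumour replicate 3. Pdk1, a kinase that shuts pyruvate out of mitochondria and a known HIF target, had 0.232, 0.0328, 4.64 and 3.26 CPM in tumour libraries, against 0.0172, 10.9 and 7.06 CPM in naive libraries. In each group 1 library was under the level of 3 counts and others were well above it, with a log2 fold change of -1.56 and a 95% interval of -5.60 to 2.49 (-0.80 without naive replicate 2 and -2.37 without tumour replicate 3). Pdk2 averaged 57.2 ± 16.8 CPM in tumour and 54.6 ± 18.4 CPM in naive libraries and was the main member of the family, with 68.3% of its level per kilobase in tumour and 71.6% in naive libraries. Pdk3 averaged 24.0 ± 8.90 CPM in tumour and 16.7 ± 3.29 CPM in naive libraries, and Pfkfb4 averaged 3.14 ± 1.89 CPM in tumour and 2.83 ± 1.33 CPM in naive libraries, both with overlap (adjusted p = 0.563 and 0.963, edgeR).

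Neighbouring pathways were read from the same fit. Of 13 tested further glycolytic genes of 19 listed, none passed the test. Of the 13, 11 had a log2 fold change above 0 (84.6%, against 52.5% of all tested genes), with a median of 0.31. Within lane 8, 8 of these 13 were above 0, with a median of 0.10. The smallest p among them belonged to Tigar, a fructose bisphosphatase that opposes glycolysis (0.56, adjusted p = 0.529, edgeR), and to the glucose transporter Slc2a8 (0.31, adjusted p = 0.604). Pkm, the pyruvate kinase, listed as Pkm2, averaged 468 ± 65.4 CPM in tumour and 453 ± 22.1 CPM in naive libraries. Of 8 genes of the pentose phosphate pathway none passed, and 7 were above 0 with a median of 0.28. Within lane 8, 5 of 8 genes of this pathway were above 0, with a median of 0.34. H6pd, its dehydrogenase of the endoplasmic reticulum, averaged 93.3 ± 27.9 CPM in tumour and 55.0 ± 12.4 CPM in naive libraries (adjusted p = 0.190, edgeR), and Pgls, the lactonase, averaged 6.11 ± 1.34 CPM in tumour and 3.99 ± 0.146 CPM in naive libraries (adjusted p = 0.685).

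None of 10 genes that control pyruvate entry into mitochondria passed, with a median of 0.04. The pyruvate dehydrogenase phosphatases had the smallest p there, Pdp2 with a log2 fold change of -1.43 (adjusted p = 0.403, edgeR) and Pdp1 with -0.67 (adjusted p = 0.493). Of 10 tested genes of glycogen metabolism none passed, and the median was 0.19. Pygl, the liver-type glycogen phosphorylase, had 2.76, 0.655, 0.319 and 0.167 CPM in tumour libraries, against 0.0343, 0 and 0 CPM in naive libraries (adjusted p = 0.200, edgeR), all naive values being under the level of 3 counts, and Pgm2 differed by 0.52 on the log2 scale (adjusted p = 0.486). Among 13 tested common reference transcripts 6 were above 0 and none passed, with a median of -0.07. Gusb, a lysosomal glucuronidase, differed by 0.70 on the log2 scale (adjusted p = 0.237, edgeR).

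Of 13 tested components of the HIF pathway none passed the test, and 8 had log2 fold changes below 0 (median -0.09). Ep300, a coactivator that HIF recruits, averaged 34.5 ± 5.15 CPM in tumour and 59.7 ± 13.3 CPM in naive libraries with no overlap (log2 fold change -0.79, SE 0.22, adjusted p = 0.123, edgeR). Siah2, a ligase that degrades prolyl hydroxylases, averaged 34.8 ± 7.36 CPM in tumour and 61.7 ± 18.2 CPM in naive libraries (adjusted p = 0.156, edgeR). Of 29 tested further HIF target genes, 1 passed, Kdm6b, which was lower (0.803% of all tested genes passed in that direction), and none passed higher (0.899% of all). At an unadjusted p under 0.05 there were 10 of 29 (34.5%, against 16.9% of all tested genes), 6 with higher and 4 with lower values in tumour. The 6 were Hmox1, Loxl2, Plin2, Angptl4, Lox and Plod1, and the 4 were Kdm6b, Hilpda, Wsb1 and Bhlhe40. Fold changes above 0 were found for 15 of 29, with a median of 0.12. Kdm6b, a histone demethylase that is also induced by many other signals, had 13.5, 16.1, 21.0 and 41.6 CPM in tumour libraries, against 99.0, 83.5 and 73.8 CPM in naive libraries. Its log2 fold change was -1.89 (SE 0.38, adjusted p = 0.0483, edgeR), and its adjusted p was over 0.05 in 13 of 18 alternative fits, among them RLE scaling (0.0504) and the leaving out of any library but tumour replicate 4 (0.0726 to 0.164). Close to the threshold on the other side were Hmox1, the haem oxygenase, which averaged 62.4 ± 20.1 CPM in tumour and 26.4 ± 2.11 CPM in naive libraries (log2 fold change 1.24, SE 0.26, edgeR adjusted p = 0.0595), and Loxl2, a collagen cross-linking oxidase, which averaged 59.8 ± 9.0 CPM in tumour and 28.9 ± 9.25 CPM in naive libraries (log2 fold change 1.05, SE 0.25, edgeR adjusted p = 0.0799). For both genes all tumour libraries exceeded all naive ones. Loxl2 was highest in tumour replicate 4, where fibroblast markers were highest too, and the part of fibroblast RNA in it was not tested. Hilpda, a lipid droplet protein, averaged 22.1 ± 8.11 CPM in tumour and 47.9 ± 11.4 CPM in naive libraries, and Wsb1, a ubiquitin ligase subunit, averaged 299.8 ± 135 CPM in tumour and 614 ± 148 CPM in naive libraries, both lower in all tumour libraries than in all naive ones (adjusted p = 0.120 and 0.139, edgeR).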

How the data were processed

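Per the labels' protocols, full-length cDNA was made with a SMART-Seq v4 kit, which does not mark strand. The submitters' processing notes name Trimmomatic 0.38 and mm10. The aligner, counter, annotation and normalization are not named in the sources used here. The authors deposited raw counts per gene, whose unit was read from their whole-number values, and normalized values on a log2 scale, which were used in 1 alternative only. In 25 entries of the count table the symbol had become a date; they held 0.174% to 0.236% of the counts and were left out of library sizes and tests. Ccdc115 alone held 6.68% to 16.5% of each library's counts.

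Counts were fitted with edgeR 4.0.16 in R 4.3.3 (filterByExpr, TMM, robust glmQLFit, glmQLFTest, all 7 libraries, group as the 1 term), with Benjamini-Hochberg adjustment over 13453 genes at 0.05. The common biological coefficient of variation was 0.749. The procedure was tested on simulated data, in which only well-expressed genes were changed and lane, sex and cell mixture had no effect. The outcome is not reported here. CPM are per TMM-scaled library size. SE is the log2 fold change over the square root of F. Depth sets the floor of 3 counts and covers counting error only. Exon lengths join the exons of protein-coding transcripts of the GENCODE M21 basic annotation (GRCm38, the assembly of mm10). Paralog shares were compared by exact two-sided permutation tests (scipy 1.17.1). Promoters come from RefSeq, matched by symbol for 35 of 38 members; Slc2a3, Epas1 and Ndrg1 had no entry. Members and lists were chosen with earlier results of these data known. Per-library values are given for the 8 members with the smallest p and for preset control points, and each pathway list is represented by the genes past the threshold or else the 2 with the smallest p, 1 of which is not reported here; values of Ndrg1, P4ha1, P4ha2, Pgam1, Aldoa, Slc2a3, the minor isoforms, Pkm, Hmox1, Loxl2, Hilpda and Wsb1 were added after they were seen. Alternatives were DESeq2 1.42.0, limma 3.58.1 (voom with quality weights, and on the deposited log2 values), RLE and upper-quartile scaling, no filter, a minimum of 5 CPM in 3 libraries, lane, sex and replicate terms, omission of Ccdc115, each library left out, and lane 8 alone.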

Additional observations from a re-analysis of the deposited data

Results flagged for a closer look

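In 3 of 38 tumour groups examined, 1 library stood far from the other 3, its gap being a larger part of the range of the group than Dixon's critical value at 95%. Chance flags about 1 in 20 groups of normally distributed values. A gene with counts in 1 tumour library only, as Aldoc and Car9, is always flagged, because its gap is the whole range. Ldhb had 10.3 CPM in tumour replicate 4, where the other tumour libraries had 0.797 to 0.885 CPM, and Aldoc had 1.35 CPM in tumour replicate 4 and 0 in the others. Tumour replicate 4 also had the highest sums of fibroblast, myeloid and melanocyte markers (18538, 545 and 121 CPM), and the part of those cells in these values was not tested. Car9 had 0.786 CPM in tumour replicate 2 and 0 in the others.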

How the results depend on the processing

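The count of members called higher was 0 with edgeR and 2 with DESeq2 (Eno1 and Vhl), and the count called lower was 0 with edgeR and 1, Ddit4, with DESeq2, limma-voom and the filter of 5 CPM in 3 libraries. All other fits called no member, where they called 0 to 1.84% of all genes. With the replicate number as a block (replicate block), 0 members and 3 of all tested genes were called. Same-numbered libraries did not deviate together from their group means (correlations -0.00641, -0.0367 and -0.0206). No pairing by number was thus seen, which does not exclude one. Without each library in turn, 26 of 36 tested members kept their direction. The log2 fold change of the 10 that did not was -0.589 to 0.0209 for Pfkfb3, -0.455 to 0.0599 for Slc2a1, -0.56 to 1.94 for Slc2a3, -0.27 to 1.01 for Slc16a1, -0.02 to 0.35 for Hk1, -0.28 to 0.35 for Pfkm, -0.18 to 0.48 for Pfkfb4, -0.17 to 0.31 for Pdk2, -0.36 to 0.14 for Bnip3 and -0.36 to 0.0023 for Ankrd37; Hk1, Bnip3 and Ankrd37 are among the 13 of 15 and 7 of 9 genes that set the direction of their classes. The difference in paralog share, in percentage points, was -1.64 to 0.604 for Pfkm, -0.0701 to 1.92 for Pfkfb4, -8.73 to 1.61 for Pdk2 and -2.16 to 1.82 for Egln3. For these the direction is not settled, and the cause was not tested. Class medians without each library were 0.27 to 0.34 for glycolytic enzymes and -0.39 to -0.21 for other HIF targets (-0.18 to 0.31 for the PFKFB and PDK genes, -0.31 to 0.08 for the transporters), and with upper-quartile scaling 0.36 and -0.22, where the median of all genes was 0.11. Pdk1 was not tested under the filter of 5 CPM. The sparse genes Hk2, Pdk1, Eno2, Ldhb, Slc2a3 and P4ha2 had SEs of 1.07 to 2.43 on the log2 scale, which limits what their fold changes can show.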
